A study of Mus musculus with 2 samples.

Results

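The regions described here are the parts of mouse chromosome 4 that lie more than 2 Mb from the promoter of Jun, as seen from that promoter by 4C-seq (circular chromosome conformation capture read by sequencing). The Jun protein is part of the dimeric transcription factor AP-1. The members were the ends of restriction fragments that have 1 copy in the genome and lie more than 2 Mb on either side of the viewpoint fragment at position 94721073 (mm9). They numbered 483533 of the 496746 unique fragment ends of the Jun profile, and of 921358 unique ends in both profiles of the series. The rule uses position and copy number and no read count. The ends were summarised in windows of 200 kb counted outwards from the viewpoint, 740 in all, of which the 727 with at least 50 unique ends were compared with an expectation. The windows reach 91.7 Mb on the side of lower coordinates and 60.9 Mb on the side of higher coordinates.

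The series holds 1 library made from the start site of Jun and 1 made from that of Ccl2, a chemokine gene on chromosome 11. Both came from untreated primary bone marrow-derived macrophages of the C57BL/6 strain, grown in medium conditioned by L929 fibroblasts and labelled as taken on day 7 of differentiation. No other genotype, treatment or time belongs to these libraries, and the labels do not say how many mice gave the marrow. With 1 library for each viewpoint there was no replicate, so no test between samples was possible and no p-value is given. The intervals below are exact binomial (Clopper-Pearson) 95% intervals over fragment ends. They cover counting error only, since neighbouring ends share a chromatin context and no molecular identifiers were used to collapse PCR copies.

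In 4C-seq, cross-linked chromatin is cut, ligated and amplified by inverse PCR from the viewpoint, so that a read at a fragment end records its ligation to the viewpoint. Ligation is most frequent in the surrounding contact domain of a promoter and becomes rare far along the chromosome. At these distances the signal is usually read as the share of fragment ends that were captured at all, because the number of reads at a captured end also depends on amplification. In mammalian nuclei, contacts over many megabases are known to be patchy, since chromatin segregates into active and inactive compartments and stretches of the same kind meet more often.

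The promoter after which the viewpoint is named is shown for orientation. The upstream sequence of Jun in RefSeq (GRCm38.p6, minus strand, chr4:95052223-95052472), 5′ to 3′ and ending at the base before the start site, reads as follows, with the AP-1/CRE-like octamer TGACATCA in capitals.
Jun promoter: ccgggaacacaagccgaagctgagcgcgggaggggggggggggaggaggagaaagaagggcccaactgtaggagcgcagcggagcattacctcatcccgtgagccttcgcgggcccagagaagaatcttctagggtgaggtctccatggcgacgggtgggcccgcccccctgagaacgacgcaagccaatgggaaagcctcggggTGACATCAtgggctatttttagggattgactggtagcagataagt
Searched on both strands, TGACATCA occurs in 2.93% of 32851 RefSeq upstream sequences of 250 bases. The sites of the first cutter, GATC, and of the second, GTAC, do not occur in this window of Jun, so it is not the fragment with the most reads, from which distances were counted and which is 138 bp long. Of the RefSeq upstream sequences, 41.9% hold a GATC and 31.5% a GTAC. No sequence of the distant windows is shown, because no mm9 genome was used here, and no gene could be assigned to them for the same reason.

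Far contacts of Jun were sparse, and far ends made up a smaller part of the captured ends than of all unique ends. Of the 483533 far ends, 5620 had a read, a share of 1.16% (1.13 to 1.19%), or 1 end in 86.0. For comparison, 29.5% of the unique ends from 5 kb to 2 Mb had a read (28.8 to 30.3%), and 3.44% of those from 1 to 2 Mb (2.99 to 3.93%). The far ends held 229986 reads, which were 20.9% of the 1098887 reads outside the 5 kb zone next to the viewpoint. They were 59.1% of the 9507 captured ends outside that zone, and 97.3% of all unique ends of the profile. The choice of 2 Mb did not fall on a visible step. On the lower side 8 of 548 ends had a read from 1.8 to 2.0 Mb (1.46%) and 6 of 521 from 2.0 to 2.2 Mb (1.15%). On the higher side the same windows held 7 of 646 (1.08%) and 7 of 700 (1.00%).

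Beyond 2 Mb, the number of reads at a captured end varied little with distance when the sides were pooled. The median was 28 reads (quartiles 10 and 60, highest 269), against a median of 93 from 5 kb to 2 Mb and 24.5 from 1 to 2 Mb. In the 7 distance classes beyond 2 Mb the mean stayed between 38.1 and 46.2 reads with both sides pooled. By side it ran from 31.2 (lower side, 3 to 5 Mb, 23 captured ends) to 50 (lower side, 2 to 3 Mb, 30 captured ends). A single read stood at 402 of the captured far ends (7.15%), and 10 or more reads at 4241 of them. A further 5389 far ends had a deposited value above 0 but below 0.5, with a median of 5.3e-09, and were counted as without a read. The signal was not carried by a few ends either: the 10 with the most reads held 1.01% of all far reads, and 1053 ends (18.7% of the captured ones) were needed to reach 50% of them.

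The pooled share of captured ends fell modestly with distance up to 60 Mb and was lowest beyond. With both sides pooled it was 1.77% from 2 to 3 Mb (118 of 6655 ends), 1.77% from 3 to 5 Mb and 1.74% from 5 to 10 Mb. It was then 1.21% from 10 to 20 Mb, 1.35% from 20 to 40 Mb, 1.10% from 40 to 60 Mb and 0.639% beyond 60 Mb (632 of 98972 ends). Of the ends beyond 60 Mb, 95708 were on the lower side (0.604% captured) and 3264 on the higher side (1.65%). The last step thus mostly sets both sides against the lower side. A line through the log10 share of 10 bins of equal log width from 2 to 60 Mb had a slope of -0.17 (counting interval -0.21 to -0.12), so a 10-fold greater distance went with a modest drop. The pooled line hid a difference between the sides: the slope was -0.27 on the higher side (-0.32 to -0.22) and 0.11 on the lower side (0.01 to 0.21), where the share did not fall over that range.

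**Figure D1:**
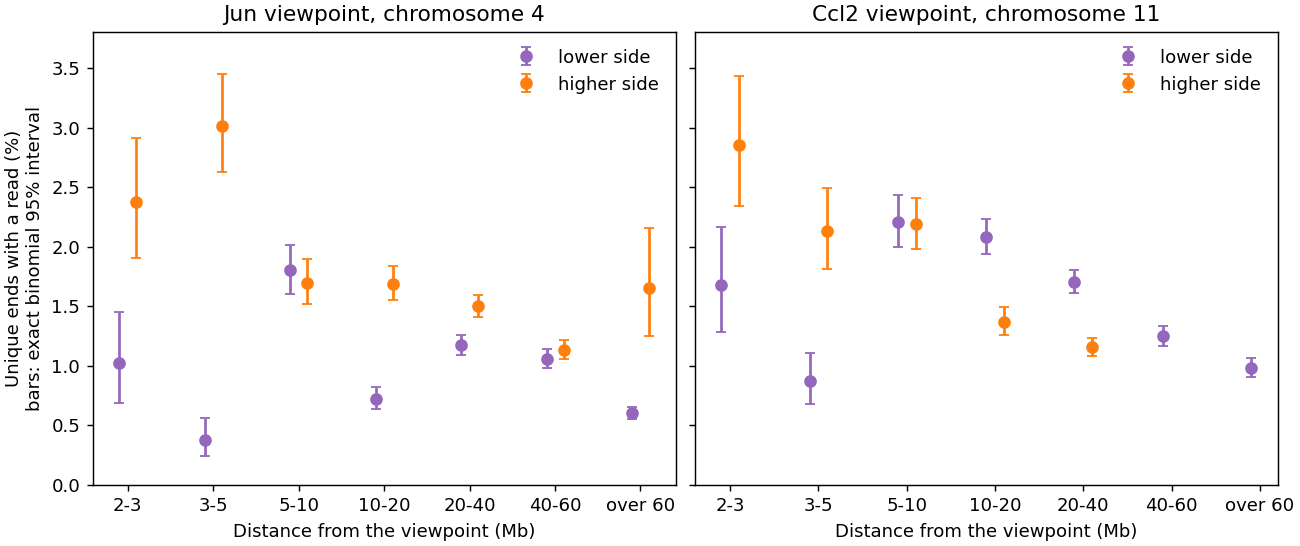
Share of unique ends with a read (%, y axis) by distance class (Mb, x axis) for the Jun library on chromosome 4 (left) and the Ccl2 library on chromosome 11 (right). Points are the lower and higher sides and bars the exact binomial 95% interval. For Jun, the higher side lies at 3.02% and the lower side at 0.376% from 3 to 5 Mb, and both lie near 1.1% from 40 to 60 Mb.

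The contacts of Jun leaned to the side of higher coordinates, which lies upstream of this gene. From 2 to 60 Mb, a range that fits on the chromosome in both directions, 2999 of 200977 higher-side ends had a read (1.49%, 1.44 to 1.55%) and 1989 of 183584 lower-side ends (1.08%, 1.04 to 1.13%). The ratio of lower to higher was 0.73 (counting interval 0.69 to 0.77). The lean was strongest close in. From 2 to 3 Mb the shares were 1.02% on the lower and 2.37% on the higher side. From 3 to 5 Mb they were 0.376% (23 of 6121 ends) and 3.02% (206 of 6829 ends), a ratio of 8.03 (5.22 to 12.3).

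Farther out the difference between the sides was uneven. From 5 to 10 Mb the lower side stood at 1.80% (1.60 to 2.01%) and the higher side at 1.70% (1.51 to 1.89%), with intervals that overlap. From 10 to 20 Mb the higher side was again above, at 1.69% against 0.723%, a ratio of 2.34 (2.01 to 2.72). From 20 to 40 Mb the shares were 1.5% (1.41 to 1.59%) and 1.17% (1.09 to 1.26%), and from 40 to 60 Mb 1.13% and 1.06%, with overlapping intervals once more. Set window against window at the same distance, the higher side had the larger share in 170 of 273 pairs from 2 to 60 Mb, the lower side in 101, and 2 pairs were equal. From 2 to 5 Mb the higher side was above in 14 of 15 pairs, and from 5 to 10 Mb in 11 of 25.

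The far end of the lower side, towards the centromere, was poor in contacts. Beyond 60 Mb, 578 of 95708 ends on that side had a read (0.604%, 0.556 to 0.655%). The lowest of the 5 Mb segments of the whole profile lay there, at chr4:24721073-29721072, with 46 of 14982 ends (0.307%). The few ends beyond 60 Mb on the higher side, next to the telomere, were at 1.65% (54 of 3264 ends, 1.25 to 2.15%). Their interval lies above that of the class from 40 to 60 Mb on the same side (1.05 to 1.21%). They fill only 5 windows, 1 of them raised, and windows varied by 6.38 times the binomial variance. The intervals cover counting error only, so they cannot show that this end is richer.

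**Figure D2:**
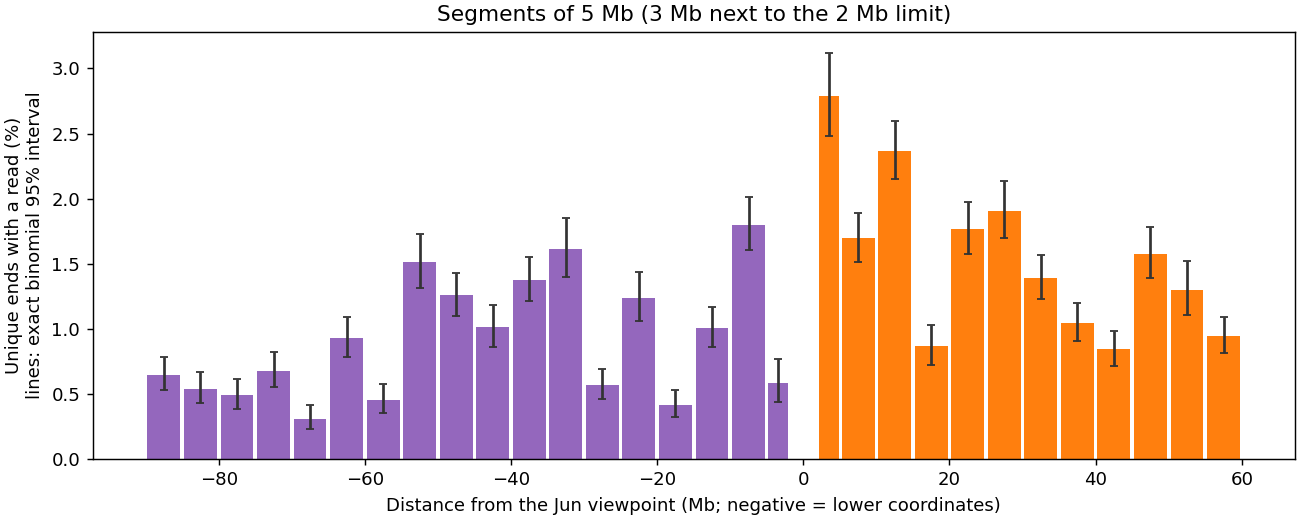
Share of unique ends with a read (%, y axis) in 5 Mb segments of chromosome 4 by distance from the Jun viewpoint (Mb, x axis; the segment next to the 2 Mb limit spans 3 Mb). Lines on the bars are exact binomial 95% intervals. The tallest bar is the higher side from 2 to 5 Mb (2.79%) and the shortest the lower side from 65 to 70 Mb (0.307%), and the share rises and falls several times on both sides.

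On the scale of 5 Mb, the share rose and fell several times along each side. On the lower side the segment from 5 to 10 Mb (chr4:84721073-89721072) had a share of 1.80%, above the 0.585% of the nearer segment from 2 to 5 Mb. The segment from 15 to 20 Mb stood at 0.413%, that from 30 to 35 Mb at 1.61% (1.40 to 1.85%) and that from 55 to 60 Mb at 0.453%. On the higher side the segment from 10 to 15 Mb (chr4:104721074-109721073) reached 2.37% (2.15 to 2.60%), and the next one, from 15 to 20 Mb, 0.865% (0.722 to 1.03%). These intervals do not overlap, so these neighbours differed by more than counting error. Other neighbours differed less, such as 20 to 25 Mb (1.77%, 1.58 to 1.97%) and 25 to 30 Mb (1.90%, 1.69 to 2.13%) on the higher side. From there the share fell over consecutive segments, to 1.39%, 1.04% and 0.840% from 40 to 45 Mb. The segments were singled out after their values were seen.

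At 200 kb the profile was patchy. A window held a median of 682 unique ends and 5 with a read. Its share ran from 0 to 7.79%, with quartiles at 0.320% and 1.61% and a median of 0.754%. The expected share, from a binomial line of log odds on log10 distance over both sides, ran only from 0.829% to 2.42%. Squared deviations from this expectation were 6.38 times the binomial variance on average. A window was called raised where its share was at least 2 times the expectation and its interval lay above it, and low where it was at most 0.5 times and its interval lay below. By these rules 99 of 727 windows were raised (13.6%) and 156 were low (21.5%). The raised windows held 14.4% of the unique ends and 40.1% of the captured ones, and the low windows 21.8% of the unique ends and 4.45% of the captured ones.

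**Figure D3:**
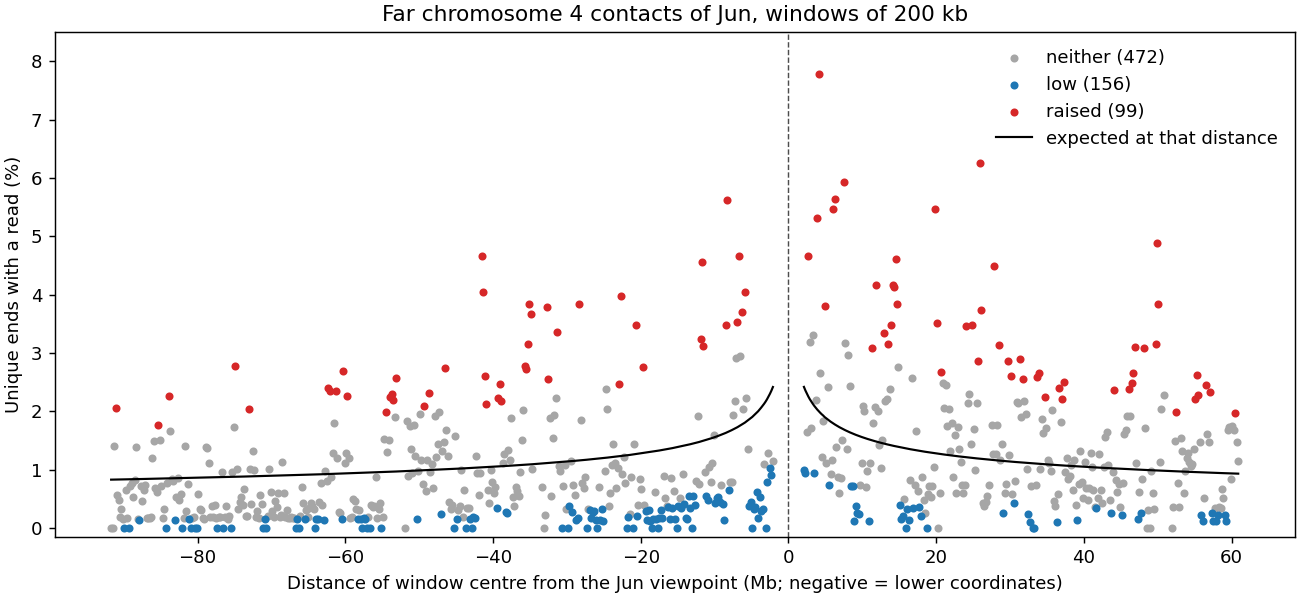
Share of unique ends with a read (%, y axis) in each 200 kb window of chromosome 4 against distance from the Jun viewpoint (Mb, x axis, lower coordinates to the left). Lines show the share expected at that distance, and colours the 99 raised, 156 low and 472 other windows. The highest point, at 7.79%, lies between 4.0 and 4.2 Mb on the higher side.

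Raised windows occurred at nearly every distance. On the higher side 52 of 289 windows were raised (18.0%) and on the lower side 47 of 438 (10.7%). Because the expectation pools both sides, this division depends on it. With a line for each side, 97 windows were raised, 31 on the higher and 66 on the lower side, and 78 of them were among the 99. On the lower side no window was raised from 2 to 5 Mb, 6 of 25 were from 5 to 10 Mb and 9 of 159 beyond 60 Mb. On the higher side 4 of 15 were raised from 2 to 5 Mb, 10 of 50 from 10 to 20 Mb, 19 of 99 from 20 to 40 Mb and 15 of 95 from 40 to 60 Mb.

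The window with the highest share lay at 4.0 to 4.2 Mb on the higher side, at chr4:98721073-98921072. It had 50 of 642 ends with a read (7.79%, 5.84 to 10.1%), 3.89 times the expectation. Its inner neighbour, chr4:98521073-98721072, had 34 of 639 (5.32%, 3.71 to 7.36%). Together these windows held 84 captured ends of 1281 (6.56%, 5.26 to 8.05%). On the lower side, 5 of 1313 ends at the same distance had a read (0.381%, 0.124 to 0.886%). The position that is richest on one side thus had a poor counterpart on the other.

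Other windows of high share lay near by on the higher side. The pair at 6.0 to 6.4 Mb, chr4:100721073-100921072 and chr4:100921073-101121072, had 5.47% and 5.64%, and the window at 7.4 to 7.6 Mb, chr4:102121073-102321072, had 5.94% (45 of 758 ends). On the lower side the highest share was at 8.2 to 8.4 Mb, chr4:86321074-86521073, with 36 of 640 ends (5.63%, 3.97 to 7.70%). Of the 10 windows with the highest share, 8 lay on the higher side and 6 within 10 Mb, while 289 and 80 of all 727 windows lay there.

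Windows with a high ratio to the share expected at their distance also lay far away. Of the 10 with the highest ratio 8 lay over 10 Mb from Jun, as did 89.0% of all 727 windows. With the pooled line and all unique ends, the highest, 5.27, was at 25.8 to 26.0 Mb on the higher side, at chr4:120521073-120721072, where 46 of 735 ends had a read (6.26%, 4.62 to 8.26%) against 1.19% expected. The next was at 49.8 to 50 Mb, chr4:144521073-144721072, with 37 of 757 ends (4.89%, 3.46 to 6.67%), a ratio of 4.96. It was followed on the lower side by 41.4 to 41.6 Mb, chr4:53121074-53321073, with 33 of 707 ends (4.67%) and a ratio of 4.49, and on the higher side by 19.8 to 20.0 Mb, chr4:114521073-114721072, with 42 of 768 ends (5.47%) and a ratio of 4.27. The order among these windows changed with the setting. With a line for each side the ratio at 41.4 Mb on the lower side was 5.29, that at 8.2 Mb on the lower side 4.65 and that at 25.8 Mb 4.34. From 3′ ends only the window at 49.8 Mb was highest of the named ones (6.05), and from 5′ ends only that at 19.8 Mb (5.11). The remaining windows of the 10 with the highest ratio were at 3.51 to 3.89 times the expectation. They include chr4:144721073-144921072 and chr4:53321074-53521073, which touch windows named above, chr4:122521073-122721072 at 27.8 Mb and chr4:59521074-59721073 at 35 Mb on the lower side.

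The signal in these windows was spread over many fragments. They were picked for a high share or ratio and held 24 to 50 captured ends each. Such a spread was therefore favoured by the pick, and other windows were not set beside them. In the 14 windows named by share or by ratio, the single strongest end held between 6.32% and 17.1% of the reads of its window. In 10 of the 14, each of the 10 stretches of 20 kb had at least 1 captured end, and in the least even 1, at chr4:144721073-144921072, 6 had. In the top window at 4.0 to 4.2 Mb the stretches held 1 to 14 captured ends each, and 25 of the captured ends were 3′ ends and 25 were 5′ ends. In the window at 25.8 Mb they held 1 to 10.

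Raised windows also came in runs. The 99 formed 64 runs, 44 of a single window, and 55 windows touched another raised one. Among the longest, of 1000 kb each, was chr4:108521073-109521072, 13.8 to 14.8 Mb away on the higher side, with 137 of 3403 ends captured (4.03%, 3.39 to 4.74%; 2.86 times the expectation). The other was chr4:58921074-59921073, 34.8 to 35.8 Mb away on the lower side, with 110 of 3405 ends (3.23%, 2.66 to 3.88%; 2.97 times). A run of 800 kb at chr4:53121074-53921073 had 93 of 2772 ends (3.35%). Runs of 600 kb lay at chr4:120321073-120921072 (4.22%) and chr4:144321073-144921072 (4.04%), at 3.56 and 4.10 times the expectation.

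With windows of 200 kb, the longest poor stretches exceeded the longest rich ones. Low was also the commoner call at this size (21.5% of windows against 13.6% raised). At 100 kb it was the rarer call (6.89% against 11.6%), and runs were not formed on that grid. At 200 kb the median ratio to the expectation was 0.65, and 267 of 727 windows lay above the expectation. More windows thus lay on the side where low calls and low runs arise. The 156 low windows formed 78 runs, and 113 of them touched another low window. The longest was 2000 kb, at chr4:89321074-91321073, 3.4 to 5.4 Mb away on the lower side, where 22 of 6170 ends had a read (0.357%, 0.224 to 0.539%). At those distances the higher side had 195 captured ends of 6806 (2.87%, 2.48 to 3.29%). The next was 1600 kb at chr4:80521074-82121073, with 18 of 5442 ends (0.331%). Then came 3 runs of 1200 kb: chr4:103121073-104321072 on the higher side (20 of 4966 ends, 0.403%), and chr4:75321074-76521073 (7 of 4178, 0.168%) and chr4:67721074-68921073 (8 of 4013, 0.199%) on the lower side. Each of these runs held at least 4013 unique ends. The low run on the higher side began 0.8 Mb beyond the rich window that ends at 7.6 Mb.

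No captured end at all was found in 46 of the 727 windows. The longest stretch between neighbouring captured fragments was 1126 kb, at chr4:145769073-146895457, but it held only 328 unique ends, which allows a share of up to 0.915% at a count of 0. The longest on the lower side, 861 kb at chr4:60501425-61362049, held 121 unique ends and allows up to 2.48%. The first limit is close to the share expected at that distance and the second is above it, so a lack of contact was hardly detectable in these stretches.

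Neighbouring windows resembled each other over a short range. Across windows of the same side, the ratio of observed to expected share had a Pearson correlation of 0.54 with the next window (720 pairs, 0.2 Mb apart), 0.25 at 0.4 Mb, 0.12 at 1 Mb and 0.02 at 5 Mb (660 pairs). Windows of this profile share 1 library and its depth, and these values are descriptions. Shares from 3′ ends alone and from 5′ ends alone, which share fragments and the library, had a correlation of 0.78 over 727 windows. Called separately, 85 of 724 windows were raised by 3′ ends (11.7%) and 78 of 724 by 5′ ends (10.8%). The lists had 46 in common (54.1% and 59.0% of each), and 5 of the 99 were raised by neither alone.

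The ends of 1 fragment were captured together more often than the product of their shares gives. Of 202177 far fragments with unique sequence at both ends, 71 had a read at both, 2.76 times that product. Both ends share the length and the second cutter site of their fragment. They also share its place on the chromosome, and the share of captured ends differed between windows. The part of these in the ratio was not tested. The 5′ end was captured in 3.04% (2.38 to 3.82%) of the fragments whose 3′ end was, against 1.10% of all. Most captured fragments were still captured at 1 end only. The median spacing between neighbouring captured fragments was 10.2 kb (quartiles 3.70 and 26.7 kb).

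Properties of the fragments moved with capture and were not used in choosing them. A fragment that holds a site of the second cutter can be trimmed to a small circle before inverse PCR. Such fragments had 3873 of 220083 far ends captured (1.76%, 1.71 to 1.82%), and fragments without the site 1747 of 263450 (0.663%, 0.632 to 0.695%). Captured ends also carried more reads with the site (median 37) than without (median 12). By length, 0.325% of far ends were captured on fragments up to 50 bp and 0.601% from 50 to 100 bp. The share was 1.01% from 100 to 200 bp and then level, at 1.40% from 200 to 500 bp, 1.39% from 500 to 1000 bp and 1.42% above that.

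Between raised and low windows, the second cutter site differed little, while ends without a deposited value differed more. The median percentage of ends on fragments with a second cutter site was 46.0% in raised, 45.7% in other and 47.0% in low windows. With that percentage as a term of the expectation, an alternative chosen after seeing the data, 101 windows were raised and 157 low. Reads per captured end were 41.2 in raised, 40.6 in other and 42.5 in low windows with all ends of a class pooled. The medians over windows with a captured end were 39.6, 37.8 and 31.9. Unique ends were slightly denser in raised windows, at a median of 3.53 per kb against 3.40 in other and 3.29 in low windows. Ends without a deposited value were fewer, at 15.6% against 19.5% and 22.6%. Across windows, this percentage had a Pearson correlation of -0.32 with the ratio of observed to expected share. For unique ends per kb the correlation was 0.20. The share of captured ends was 0.756% (0.709 to 0.805%) in the 242 windows with the sparsest unique ends (up to 3.13 per kb), 1.30% in the 242 of middle density and 1.31% in the 243 densest. The part of end density and of ends without a value in the pattern of raised and low windows was not tested.

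**Figure D4:**
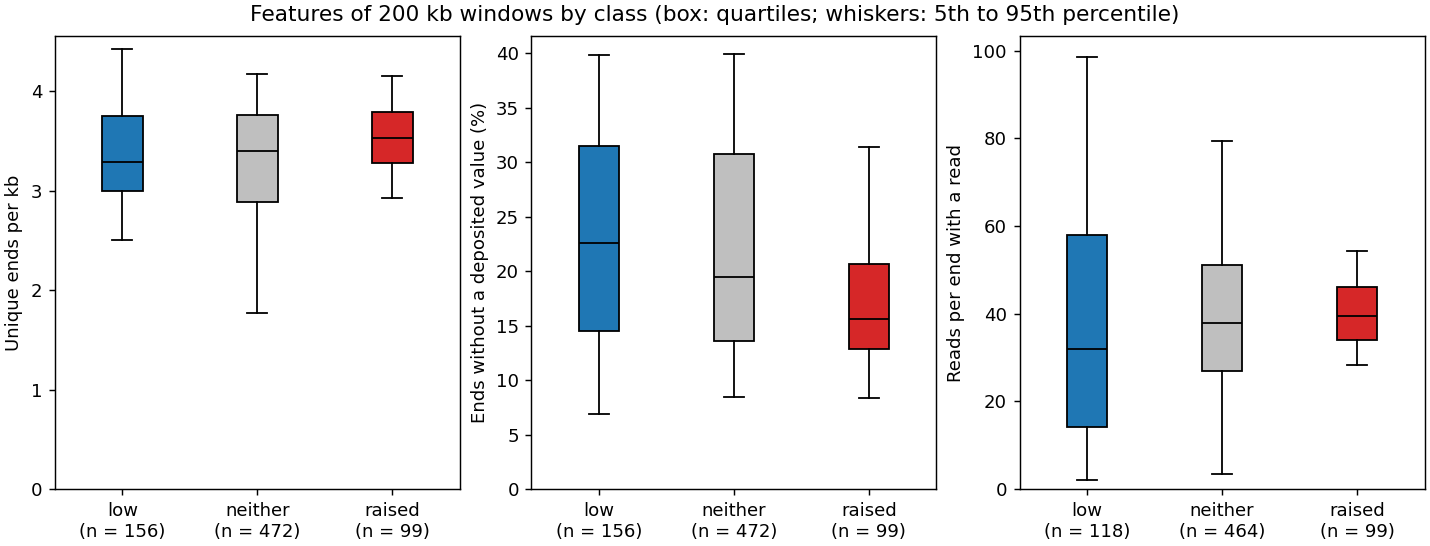
Unique ends per kb (left), percentage of ends without a deposited value (middle) and reads per end with a read (right) in low, other and raised windows of 200 kb. Boxes give quartiles and medians, and whiskers the 5th to 95th percentile. The medians of ends without a value are 22.6%, 19.5% and 15.6%, while windows of all 3 classes overlap widely in end density. Windows with no captured end are left out on the right.

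The ends with the most reads were scattered along the chromosome. The highest had 269 reads, at position 142765953, 48.0 Mb away on the higher side. The next had 264 reads at position 97451697, 2.73 Mb away, and 253 reads at position 106849217, 12.1 Mb away. The other 7 of the 10, all on the lower side, had 209 to 234 reads, among them position 26319025 at 68.4 Mb. Of all captured far ends, 45.7% lay on the lower side. Of the 10, 9 lay on a fragment with a second cutter site and 6 in a raised window, where 68.9% and 40.1% of all captured far ends lay. A strong single end was thus found at 68.4 Mb as well as at 2.73 Mb.

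The Ccl2 profile, taken from chromosome 11 of the same cell type, is given only for scale. There 6016 of 409098 ends over 2 Mb away had a read (1.47%, 1.43 to 1.51%), above the 1.16% of Jun beyond counting error, in a library with fewer reads on unique ends (1248937 against 1652054). Those totals include the end with the most reads, which had 258628 for Ccl2 and 462999 for Jun. The far ends of Ccl2 held 411175 reads, against 229986 for Jun. They were 45.6% of its reads outside the 5 kb zone, against 20.9% for Jun. The slope from 2 to 38 Mb, the range that chromosome 11 allows on both sides, was -0.10 for Ccl2 (-0.15 to -0.06) and -0.13 for Jun (-0.20 to -0.07), with overlapping intervals. Of the 575 Ccl2 windows, 70 were raised (12.2%) and 159 low (27.7%), and the correlation between neighbouring windows was 0.54 (573 pairs). From 3 to 5 Mb, the sides of Ccl2 stood at 0.874% (lower) and 2.13% (higher), against 0.376% and 3.02% for Jun. With 1 library for each viewpoint and different chromosomes, these differences cannot be told apart from differences between libraries.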

How the data were processed

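Each deposited file covers the viewpoint chromosome in bins of 16 bp, with values at the bins of fragment centres; per the submitters' processing notes the genome build was mm9, and no source used here names the aligner. The values of fragment ends, as deposited by the authors, are estimated counts of reads that need not be whole, per the file headers and the values; of 1598 far Jun values from 0.05 to 10, 72.3% lie within 0.1 of a whole number. They were rounded to whole reads. Multiplicity (1 to 50) and lengths are other columns per the file headers, whose names are shifted by 1 column against the values. Ends with multiplicity 1 and over 2 Mb from the viewpoint were kept. The expectation for windows was a binomial regression (statsmodels 0.14.6, Python 3.11.15). It was tried on simulated ends drawn independently, with planted raised and low windows. These lack the spread beyond binomial and the likeness of neighbouring windows seen in the data. Windows were named by rule: the 10 highest shares, the 10 highest ratios among raised windows, the 5 longest runs of raised and of low windows, and the 10 ends with most reads. The members and rules were chosen with earlier results of these data known. The labels' protocols state 2% formaldehyde for 10 min, cutters of 4 bp and 8 pooled PCRs of 200 ng template in all. Read depth was 1652054 (Jun) and 1248937 (Ccl2) reads on unique ends. Alternatives varied the read minimum, multiplicity, fragment type, distance range, window grid, expectation and fold.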

Additional observations from a re-analysis of the deposited data

Results flagged for a closer look

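Far ends whose sequence recurs elsewhere in the genome were outside the main values, and some had reads in the Jun library. Since the sequence recurs, such a read need not come from the far position. Of 97549 such ends over 2 Mb from the viewpoint, 2730 had a read (2.80%, 2.70 to 2.90%), against 1.16% of unique ends. The captured ones had a median of 3 reads, against 28 on unique ends, and 34.5% of them had a single read. The excess lay in ends with few reads: 10 or more stood at 815 of the captured ones (29.9%). On captured unique ends it was 4241 (75.5%).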

How the results depend on the processing

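The share of far ends with a read (1.16%) was 1.08% with at least 2 reads per end and 0.877% with at least 10, 1.44% with ends of any multiplicity, 1.76% on fragments with a second cutter site and 1.32% on fragments of 100 bp or longer. The ratio of side shares (0.73) stayed below 1 under all 9 alternatives. It was 0.64 on fragments with a second cutter site and 0.78 over 5 Mb. The slope (-0.17) was -0.26 from 5 Mb on, -0.22 from 2 to 20 Mb and -0.27 on the higher side alone, and it reversed to 0.11 on the lower side alone. Raised windows (99, 13.6%) numbered 166 at 100 kb (11.6%), 33 at 500 kb (11.2%) and 24 at a fold of 3 (3.30%). Low windows (156, 21.5%) numbered 99 at 100 kb (6.89%) and 99 at 500 kb (33.6%). They numbered 53 from 3′ ends only (7.32%) and 49 from 5′ ends only (6.77%). The percentage called low thus rose with window size and was smaller with each kind of end alone. The grids of 100 and 500 kb hold 1437 and 295 windows, and each kind of end is only part of the ends. The other 14 alternatives for raised and 13 for low windows stayed within 1.5 times. Under the 12 alternatives on the same grid that could end a call, the 14 named windows stayed raised in 165 of 166 recomputations, and at a fold of 3 the exception was the window whose ratio was 2.62. The named windows were not recomputed on other grids. They had been chosen as the highest by share or ratio in the same ends, so staying raised was favoured by the choice. Of all 99 raised windows, 46 were raised both by 3′ ends and by 5′ ends when called separately. Each kind of end alone raised 11.7% (3′) and 10.8% (5′) of 724 windows. No paired analysis was possible because each viewpoint has 1 library. Depth limits single windows, which held a median of 5 captured ends.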
